A study of Mus musculus with 6 samples.

Results

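The secretory stage enamel genes described here are Amelx, Ambn, Enam, Mmp20, Fam83h, Fam20a and Lamb3, 7 of the 23594 genes in the deposited count table. They were chosen by name, as genes known to be needed for enamel. The rule uses no measured value, but the choice was made with earlier results of these data known. All 7 were present and all 7 passed the filter on low counts, which kept 20114 genes for testing. The tissue was the apical part of the furcation development region (FDR) of mandibular first molars at PN4.5 (postnatal day 4.5), cut from frozen sections by laser-capture microdissection. RNA sequencing compared 3 control libraries (C57BL/6, labelled wild type) with 3 Lhx6-/- libraries (C57BL/6) of the same age of 4.5 days. According to the study's methods, Lhx6-/- mice are homozygous for a Lhx6-CreER knock-in allele that abolishes Lhx6 function, and controls were littermates. Tissue of several molars was combined into each library, so a library is a pool and not a single animal. The labels do not say which animals entered which pool, so the spread between the 3 libraries of a group is the only error available. The comparison asks whether loss of Lhx6, a LIM homeobox transcription factor gene, went along with a change in the RNA of the genes that build enamel.

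Enamel is laid down by ameloblasts, epithelial cells that line the crown of the growing tooth. In the secretory stage these cells release matrix proteins that organise the first thin mineral, and a metalloproteinase cleaves the proteins as they are released. In the later maturation stage the matrix is removed and the mineral thickens. Inherited variants in each of the 7 genes cause amelogenesis imperfecta, a defect of enamel. Amelx encodes amelogenin, the main matrix protein, Ambn encodes ameloblastin and Enam encodes enamelin. Mmp20 encodes enamelysin, the matrix protease of the secretory stage. Fam83h encodes an intracellular scaffold for casein kinase 1 and keratin filaments, Fam20a encodes a pseudokinase that activates the secretory pathway kinase FAM20C, and Lamb3 encodes a chain of the laminin by which epithelium is anchored to its basement membrane.

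Coordinates below are on mm10 as the authors' table gives them. Amelx lies on chromosome X, minus strand, chrX:169176114-169187200. The whole of it falls inside the span of Arhgap6, a gene on the opposite strand, but 0 Arhgap6 exons touch it, and Arhgap6 had a mean of 4.74 CPM (counts per 1000000 counts of the library). Ambn, chr5:88455991-88468531, and Enam, chr5:88487975-88506049, are both on the plus strand, and 19443 bases separate the end of the first from the start of the second. Both belong to the SCPP family (secretory calcium-binding phosphoproteins), as does Amelx. Mmp20 lies on the plus strand at chr9:7628231-7674979, Fam83h on the minus strand at chr15:76001093-76014336, Fam20a on the minus strand at chr11:109669749-109722279 and Lamb3 on the plus strand at chr1:193207699-193343878. None of the 7 shares exon bases with another gene of GENCODE vM21.

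The 250 bases before the annotated start are printed for the 3 matrix genes and Mmp20, because these 4 genes are specific to enamel formation and hold most of the signal described below, with Fam20a for contrast. The sequences and starts are those of RefSeq on GRCm38.p6, read 5′ to 3′ on the strand of the gene. For Amelx and Fam20a the RefSeq start differs from that of the span given above, and part of the Fam20a window lies inside its span. Capitals mark TATAAA, and CCAAT on either strand (ATTGG when it is on the opposite strand).
Amelx, minus strand, chrX:169187210-169187459: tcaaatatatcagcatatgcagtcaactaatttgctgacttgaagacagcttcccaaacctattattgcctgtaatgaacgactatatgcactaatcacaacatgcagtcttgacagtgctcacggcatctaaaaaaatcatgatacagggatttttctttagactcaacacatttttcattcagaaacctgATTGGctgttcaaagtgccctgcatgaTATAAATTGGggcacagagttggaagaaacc
Ambn, plus strand, chr5:88455741-88455990: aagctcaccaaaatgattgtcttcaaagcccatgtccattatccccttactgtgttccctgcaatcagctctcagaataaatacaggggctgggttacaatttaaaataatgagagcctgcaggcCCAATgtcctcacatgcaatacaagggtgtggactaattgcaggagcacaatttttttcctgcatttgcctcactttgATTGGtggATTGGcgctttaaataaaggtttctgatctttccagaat
Enam, plus strand, chr5:88487725-88487974: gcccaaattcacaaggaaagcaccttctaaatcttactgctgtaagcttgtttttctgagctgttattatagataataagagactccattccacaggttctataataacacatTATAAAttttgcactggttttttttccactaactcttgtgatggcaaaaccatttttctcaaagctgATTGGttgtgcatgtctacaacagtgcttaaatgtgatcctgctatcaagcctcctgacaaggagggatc
Mmp20, plus strand, chr9:7627981-7628230: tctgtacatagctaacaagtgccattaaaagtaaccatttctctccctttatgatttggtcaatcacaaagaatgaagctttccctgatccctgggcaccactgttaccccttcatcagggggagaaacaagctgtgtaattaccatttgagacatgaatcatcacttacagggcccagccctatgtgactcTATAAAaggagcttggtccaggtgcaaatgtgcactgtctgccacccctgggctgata
Fam20a, minus strand, chr11:109722239-109722488: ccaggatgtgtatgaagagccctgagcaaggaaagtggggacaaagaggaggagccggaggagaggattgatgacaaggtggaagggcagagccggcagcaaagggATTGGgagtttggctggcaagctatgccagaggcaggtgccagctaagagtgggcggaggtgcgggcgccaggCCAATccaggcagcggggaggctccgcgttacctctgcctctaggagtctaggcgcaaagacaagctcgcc

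The promoter table held 6 of the 7 genes, with Fam83h not among them and with 2 start sites for Lamb3, both inside the span given above. The 4 enamel-specific windows were rich in A and T. Their GC content was 38.4% for Amelx, 42.0% for Ambn, 37.6% for Enam and 45.6% for Mmp20, against a median of 52.4% over all 32851 windows. Fam20a had 61.2%, and the windows of Lamb3 had 58.8% and 61.2%. TATAAA began 31 bases before the start of Amelx, where it overlaps an ATTGG that begins 26 bases before it. It began 58 bases before the start of Mmp20 and 137 bases before that of Enam. On either strand TATAAA was present in 12.4% of all windows, and on the strand of the gene between 40 and 11 bases before the start in 2.08%. CCAAT, found on either strand in 33.8% of all windows, was present in the windows of Amelx, Ambn, Enam and Fam20a. It occurred at 3 places in Ambn, of which the nearest to the start, both ATTGG, began 47 and 39 bases before it. In all 10 motifs were searched on both strands, and this search was made after the expression values were seen. Beside those above, they were TATAAN, which includes every TATAAA and was found in the same 3 genes (22.7% of all windows), TAATTA in Mmp20 (4.84%), TAATTG in Ambn (7.17%), GGGCGG in Fam20a (32.7%) and CAGGTG in Mmp20, Fam20a and Lamb3 (17.2%). TGTGGT (14% of all windows), TTGCNNAA (9.56%) and AACAAAG (5.03%) were in 0 of the windows of the 6 genes. These matches describe letters only.

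Lhx6 itself was checked before the enamel genes. Its level was 27.79, 18.23 and 21.91 CPM in the control libraries and 12.82, 9.815 and 10.51 CPM in the Lhx6-/- libraries, each time in the order of replicates 1, 2 and 3, which is used throughout. The log2 fold change was -1.04 (SE 0.16, adjusted p = 0.021 from edgeR), and the groups did not overlap, in the direction of the labels. CPM here are estimated counts scaled by edgeR's TMM method. Each fold change is that of Lhx6-/- over control from the quasi-likelihood F test of edgeR, and each adjusted p is a Benjamini-Hochberg value over all 20114 genes, with 3 libraries in each group. Library totals ran from 60132323 to 76157433 estimated counts, so even Fam83h had at least 712 counts in every library. For these genes precision was set by the spread between libraries more than by depth. Without control replicate 3, Lhx6-/- replicate 2 or Lhx6-/- replicate 3, the adjusted p of Lhx6 was 0.111, 0.11 and 0.0772, and its log2 fold change stayed between -1.17 and -0.86 without any 1 library.

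Of the 7 enamel genes, the matrix genes Amelx, Ambn and Enam had abundant RNA in both genotypes. Fam83h held a mean of only 0.00136% of the library. None of the 7 changed by edgeR's adjusted p under 0.05, where 0.403% of all tested genes did and 0.0795% did with the lower level in Lhx6-/-, and none was at least 1.5-fold different with an unadjusted p under 0.05, where 3.28% of all tested genes were. DESeq2 and limma also gave 0 of 7 by the adjusted p. At an unadjusted p under 0.05 alone the count was 1 of 7 (9.81% of all tested genes). Their median log2 fold change was -0.07, beside -0.002 for all tested genes. In tissue of this kind, fewer cells of a type and less RNA per cell cannot be told apart.

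Amelx, the gene of the main matrix protein, stood at 101218, 96433 and 109633 CPM in the control libraries. In the Lhx6-/- libraries it stood at 94669, 83288 and 104619 CPM. The groups overlapped, and Lhx6-/- replicate 2 was the lowest and control replicate 3 the highest of the 6 libraries. The means were 102428 ± 6683 CPM (SD, n = 3) and 94192 ± 10673 CPM (SD, n = 3), a log2 fold change of -0.12 (SE 0.11, 95% interval -0.36 to 0.12, adjusted p = 0.805). On a linear scale this interval ran from 0.78-fold to 1.08-fold. The difference became -0.07 on the log2 scale when control replicate 3 was left out, -0.04 when Lhx6-/- replicate 2 was, and -0.20 when Lhx6-/- replicate 3 was. Amelx is X-linked, and the pools differed in transcripts that mark sex. The RNA of Xist, made by the inactive X of females, stood at 792, 411 and 628 CPM in the control libraries and at 290, 0.228 and 0.0537 CPM in the Lhx6-/- libraries. The sum of 4 Y-linked genes ran from 14.6 to 58.0 CPM in control and from 55.1 to 92.1 CPM in Lhx6-/- libraries. Every control library was above every Lhx6-/- library in Xist, so sex was partly confounded with genotype for every gene compared here. The part of sex in the level of Amelx, or of the other enamel genes, was not tested.

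Ambn, the gene of ameloblastin, which binds ameloblasts to the matrix, stood at 28960, 34848 and 29963 CPM in the control libraries. In the Lhx6-/- libraries it stood at 28317, 26252 and 34733 CPM. The 2 highest libraries were control replicate 2 and Lhx6-/- replicate 3, 1 of each genotype. Lhx6-/- replicates 1 and 2 lay below every control library, so the groups overlapped only through Lhx6-/- replicate 3. The log2 fold change was -0.07 (SE 0.12, 95% interval -0.33 to 0.19, adjusted p = 0.918). Its direction was not stable. Leaving out control replicate 2 gave 0.02, and leaving out Lhx6-/- replicate 2 gave 0.01.

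Enam, the gene of enamelin, the largest of the matrix proteins, stood at 4565, 6002 and 4937 CPM in the control libraries. In the Lhx6-/- libraries it stood at 4686, 4769 and 6237 CPM. Control replicate 2 and Lhx6-/- replicate 3 were again the high libraries, and the other 4 lay close together. The log2 fold change was 0.02 (SE 0.13, 95% interval -0.27 to 0.31, adjusted p = 0.985), and it was -0.13 without Lhx6-/- replicate 3.

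Mmp20, the gene of the secretory stage protease, stood at 307.4, 409.7 and 319.6 CPM in the control libraries. In the Lhx6-/- libraries it stood at 292.8, 306.9 and 391.3 CPM. It had the same pair of high libraries as Enam. Lhx6-/- replicates 1 and 2 lay below every control library, replicate 2 only just, so the groups overlapped only through Lhx6-/- replicate 3. The log2 fold change was -0.07 (SE 0.14, 95% interval -0.37 to 0.24, adjusted p = 0.938), and it was 0.08 without control replicate 2.

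Fam83h, the gene of the keratin and casein kinase scaffold, was the only 1 of the 7 whose groups did not overlap. It stood at 13.74, 17.87 and 13.59 CPM in the control libraries and at 11.65, 12.76 and 11.93 CPM in the Lhx6-/- libraries. Every Lhx6-/- library was below the lowest control library, by a margin of less than 1 CPM from the nearest, and control replicate 2 was high. The groups of 15.5% of all tested genes did not overlap, and those of 7.68% did so with the lower values in Lhx6-/-. For Fam83h the log2 fold change was -0.32 (SE 0.12, 95% interval -0.59 to -0.04, unadjusted p = 0.0264, adjusted p = 0.423), so it did not pass the test over all genes. Without control replicate 2 it was -0.17, and with the level of the dental epithelium markers (below) as a covariate -0.04. The marker level did not overlap between the genotypes either, so that covariate was partly confounded with genotype.

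Fam20a, the gene of the pseudokinase, was the steadiest of the 7. It stood at 201.2, 209.5 and 204.1 CPM in the control libraries and at 201.9, 194.1 and 202.8 CPM in the Lhx6-/- libraries. The highest library was only 1.08 times the lowest, where the same ratio was between 1.32 and 1.53 for the other 6 genes. For Fam20a the log2 fold change was -0.04 (SE 0.07, 95% interval -0.18 to 0.11, adjusted p = 0.92), the narrowest interval of the 7.

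Lamb3, the laminin chain gene, stood at 325.2, 381.3 and 324.6 CPM in the control libraries. In the Lhx6-/- libraries it stood at 291.7, 281.8 and 348.7 CPM. Lhx6-/- replicates 1 and 2 lay below every control library, but Lhx6-/- replicate 3 lay between control libraries, so the groups overlapped. For Lamb3 the log2 fold change was -0.16 (SE 0.10, 95% interval -0.37 to 0.05, adjusted p = 0.67). It was -0.08 when control replicate 2 was left out, -0.10 when Lhx6-/- replicate 2 was, and -0.26 when Lhx6-/- replicate 3 was (unadjusted p = 0.0171, adjusted p = 0.355). For the 6 genes other than Fam83h, the 95% intervals lay between 0.77-fold and 1.24-fold, so none of them reached a 1.5-fold difference in either direction.

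**Figure D1:**
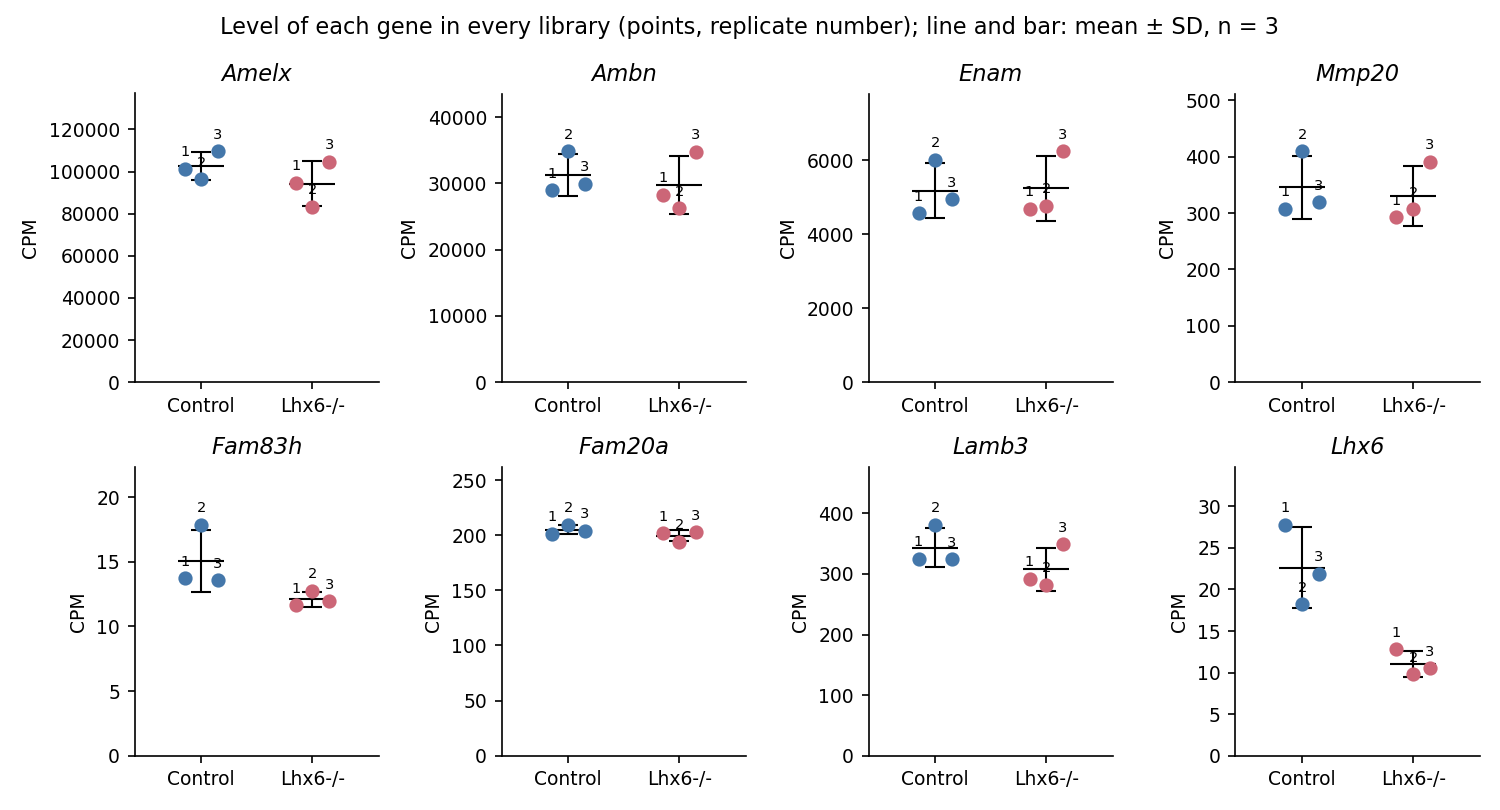
Level in CPM (vertical axes, each starting at 0) of the 7 enamel genes and Lhx6 in the 3 control (blue) and 3 Lhx6-/- (red) libraries, with the replicate number above each point and the mean ± SD as lines. Only Fam83h, at 13.59 to 17.87 against 11.65 to 12.76 CPM, and Lhx6 have groups that do not overlap.

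**Figure D2:**
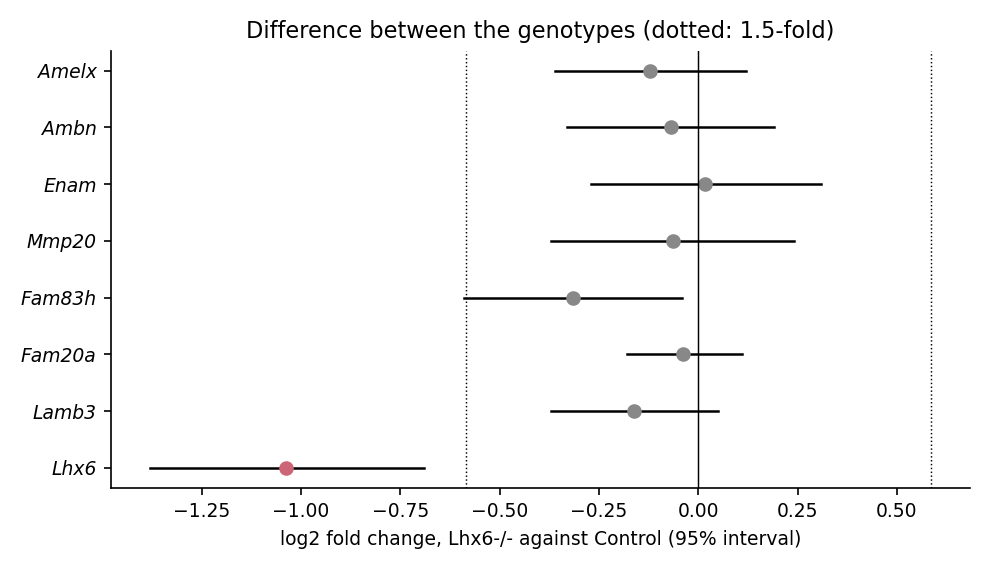
Log2 fold change of Lhx6-/- over control (horizontal axis) for each gene with its 95% interval from edgeR; dotted lines mark 1.5-fold, and the red point is the gene with an adjusted p under 0.05. Lhx6 lies at -1.04, and the 7 enamel genes lie between -0.32 and 0.02.

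The plot of levels shows how little the genotypes differed, and the plot of fold changes shows the same on one scale with the interval of each gene. Fam83h is the only 1 of the 7 whose interval leaves out 0.

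As a share of all estimated counts of a library, which is not divided by gene length, Amelx held a mean of 9.81% over the 6 libraries. CT010467.1, a ribosomal RNA gene, had the same rounded mean of 9.81%. By group means Amelx held more than that gene in control tissue (10.18% against 9.719%) and less in Lhx6-/- tissue (9.446% against 9.895%). In Lhx6-/- replicate 3, however, Amelx held more (10.22% against 9.538%), and the difference was not tested. Col1a1 and Col1a2, which encode the chains of type I collagen, held 7.83% and 2.82%, Ambn held 3.05% and Sparc, a collagen-binding matrix gene, 1.27%, and no other gene reached 1%. The share of Amelx was 10.11%, 9.653% and 10.78% in the control libraries and 9.426%, 8.688% and 10.22% in the Lhx6-/- libraries. Only Lhx6-/- replicate 3 of the Lhx6-/- libraries reached the range of the controls (two-sided exact permutation test, p = 0.3). The share of Ambn was 2.893%, 3.488% and 2.947% in control and 2.819%, 2.738% and 3.394% in Lhx6-/- libraries (exact permutation p = 0.5). The share of Enam was 0.4559% to 0.6008% in control and 0.4665% to 0.6095% in Lhx6-/- libraries (exact permutation p = 0.7). Mmp20, Lamb3 and Fam20a held means of 0.0338%, 0.0325% and 0.0202%, and Fam83h 0.00136%. Together the 7 genes held 13.54%, 13.84% and 14.3% of the control libraries and 12.79%, 12.01% and 14.32% of the Lhx6-/- libraries, most of it from Amelx. With 3 libraries against 3 the smallest p of this test is 0.1, so no share could pass 0.05. Only Fam83h reached that smallest p.

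**Figure D3:**
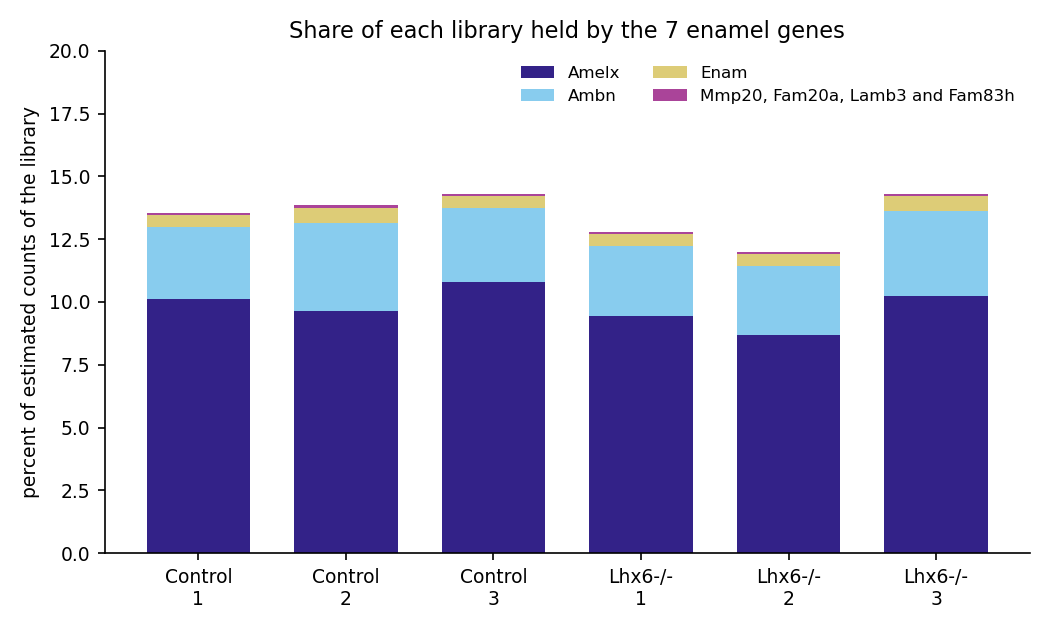
Percent of the estimated counts of each library (vertical axis from 0) held by Amelx, Ambn, Enam and the other 4 enamel genes, stacked, in the 6 libraries. The stacks reach 13.54% to 14.3% in control and 12.01% to 14.32% in Lhx6-/- libraries, and Amelx is the largest piece in each.

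Levels of different genes were compared per kilobase of merged exons (CPM per kb, GENCODE vM21 exon lengths). Amelx had a mean of 98408 CPM per kb over the 6 libraries and was 6.19 times Ambn, at 15900 CPM per kb. Ambn was 16.79 times Enam, at 947 CPM per kb. Enam was 9.21 times Mmp20, at 102.8 CPM per kb. Each of these steps held in all 6 libraries and was far larger than the spread between them, so the matrix genes fell in the order amelogenin, ameloblastin, enamelin, with the protease below them. Mmp20 was 1.85 times Fam20a, at 55.65 CPM per kb, also in 6 of 6 libraries. Fam20a and Lamb3, at 49.24 CPM per kb, did not differ beyond their spread. Lamb3 ran from 42.63 to 57.67 CPM per kb, which covers the whole range of Fam20a from 53.4 to 57.65, and Fam20a was higher in 5 of 6 libraries. Fam83h was lowest, at 2.937 CPM per kb, and Lamb3 was 16.77 times that.

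The 7 genes did not vary in 1 way across the libraries. On the log2 scale and centred on each gene's mean over the 6 libraries, Ambn, Enam, Mmp20 and Lamb3 were all high in control replicate 2 (0.20, 0.22, 0.29 and 0.24) and in Lhx6-/- replicate 3 (0.19, 0.27, 0.22 and 0.11). Amelx did not share the high value of control replicate 2, where it stood at -0.02, and was highest in control replicate 3, at 0.16. Fam83h was high in control replicate 2, at 0.41, but low in Lhx6-/- replicate 3, at -0.17. Fam20a stayed within 0.06 of its mean in every library. As a description, the root mean square difference between the centred patterns was 0.048 for Enam and Mmp20 and 0.054 for Ambn and Lamb3. By this measure Mmp20 ranked 18 among the 9479 other genes compared with Enam, and Amelx ranked 4095. The ratio of Amelx to Enam in CPM ran from 16.1 in control replicate 2 to 22.2 in control replicates 1 and 3, and its groups overlapped. The ratio of Enam to Mmp20 ran from 14.6 to 15.4 in control and from 15.5 to 16.0 in Lhx6-/- libraries without overlap (exact permutation p = 0.1, the smallest possible). These ratios, 4 in all, were chosen after the values were seen.

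**Figure D4:**
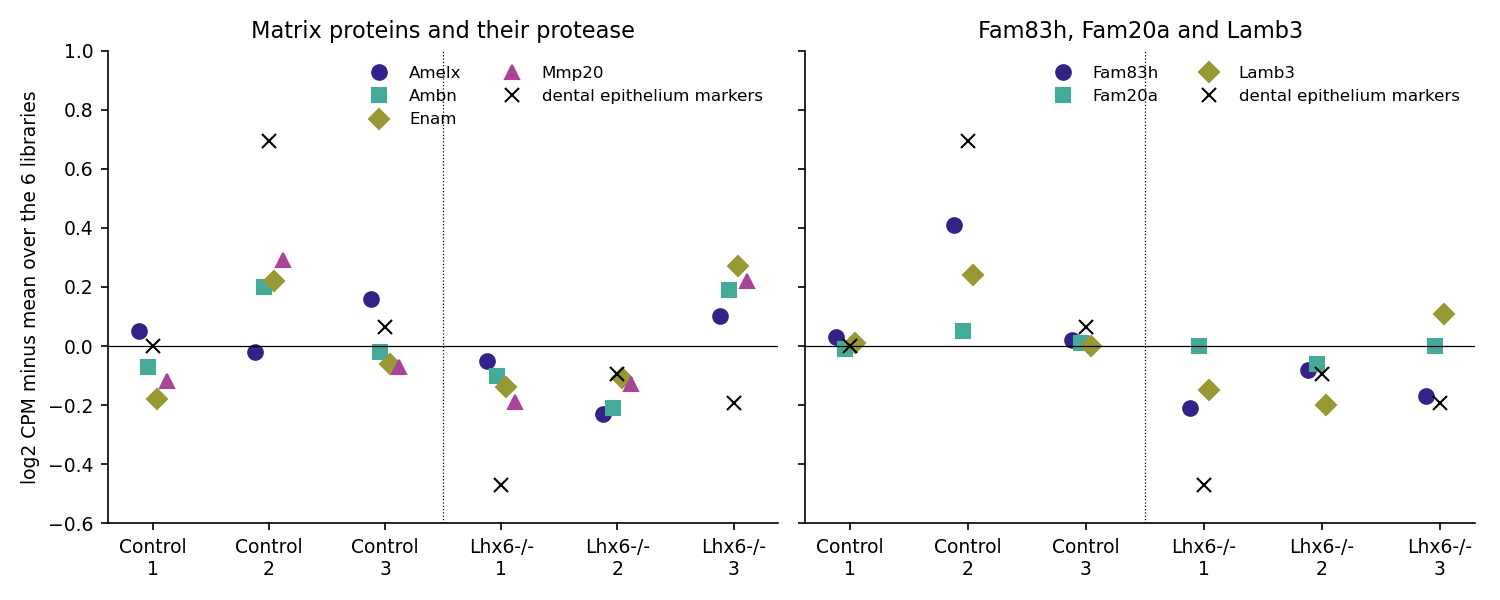
Log2 CPM minus the gene's mean over the 6 libraries (vertical axis) in each library, for the matrix genes and their protease (left) and Fam83h, Fam20a and Lamb3 (right); crosses are the geometric mean of the 15 dental epithelium markers. Ambn, Enam, Mmp20 and Lamb3 are high in control replicate 2 and Lhx6-/- replicate 3, and the markers are high in control replicate 2 but not in Lhx6-/- replicate 3.

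Genes with the most similar pattern were found among genes with a mean of at least 10 CPM, by the smallest root mean square difference over the 6 libraries. With so few libraries many genes lie close to any pattern. For Amelx they were Ctu2, Slc35c2, Srp19, Gm16042 and Zfand2b (0.034 to 0.041), for Ambn Bsg, Cdkn2aipnl and Tnn (0.025 to 0.035), and for Enam Ssr3, Secisbp2l and Itga6 (0.022 to 0.032). For Mmp20 they were Impad1, Ndfip1 and Smim15 (0.028 to 0.035), for Fam20a Sh3glb2, Hspa4 and Pex19 (0.016 each), and for Lamb3 Gyg, Ssr4 and Vdac3 (0.02 to 0.024). The nearest genes to Fam83h were farther away, Arl4c, Tpt1-ps3 and Cox5b at 0.056 to 0.066.

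Captured tissue can hold different amounts of epithelium, so the enamel genes were set beside 15 markers of dental epithelium. All 15 markers were lower in the Lhx6-/- libraries, with a median log2 fold change of -0.40 against -0.002 for all tested genes. Without control replicate 2 the median was -0.24, and over all leave-one-out fits it lay between -0.59 and that value. By edgeR's adjusted p 0 of the 15 passed, 6 met the 1.5-fold rule in the lower direction (1.71% of all tested genes) and 8 had an unadjusted p under 0.05 in that direction (5.07%). Those with the smallest p were Krt14, Krt17 and Krt5, keratin genes of basal and outer epithelium, with log2 fold changes of -0.62, -1.03 and -0.72 and adjusted p of 0.116, 0.154 and 0.214. The geometric mean of the list was 36.3, 58.69 and 37.92 CPM in the control libraries and 26.2, 33.99 and 31.75 CPM in the Lhx6-/- libraries. The groups did not overlap, and control replicate 2 stood above all others. Summed over the list, levels ran from 1341 to 2118 CPM in control and from 967.9 to 1166 CPM in Lhx6-/- libraries, and 0 of the 15 was at 0 in any library.

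Divided by that geometric mean, each enamel gene had a higher mean in Lhx6-/- than in control tissue. The Lhx6-/- mean was 127.8% of the control mean for Amelx, 135.1% for Ambn, 143.9% for Enam, 136.2% for Mmp20, 114.8% for Fam83h, 136.6% for Fam20a and 126.6% for Lamb3. The ratio of Enam was 125.7, 102.3 and 130.2 in the control and 178.8, 140.3 and 196.4 in the Lhx6-/- libraries, without overlap. Mmp20 and Fam20a did not overlap either, and the other 4 did. In the exact permutation test p was 0.1 for Enam, Mmp20 and Fam20a, the smallest possible, and 0.3 for the other 4, over 7 comparisons, so none could pass 0.05. The ratio moves with the markers as well as with the enamel genes, and control replicate 2, the library with the most marker RNA, was the lowest in it for all 7. Without that library the Lhx6-/- mean was 109.8% of the control mean for Amelx, 123.7% for Ambn, 134.3% for Enam and 128.3% for Mmp20. It was 108.2% for Fam83h, 120.8% for Fam20a and 115.7% for Lamb3. With the marker level as a covariate in edgeR, 0 of the 7 had an adjusted p under 0.05, and the log2 fold change was 0.28 for Enam, 0.23 for Mmp20 and 0.09 for Ambn. In the same fit it was -0.22 for Amelx, farther below 0 than without the covariate and opposite in direction to its ratio, -0.04 for Fam83h, -0.02 for Fam20a and -0.004 for Lamb3. The marker level did not overlap between the genotypes, so this covariate was partly confounded with genotype, and a fit with it cannot separate the 2. How far the amount of captured epithelium enters the level of the enamel genes was not tested beyond this. The markers and the enamel genes did not move together in every library. In Lhx6-/- replicate 3, Enam and Mmp20 were high while the markers were below their mean over the 6 libraries.

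**Figure D5:**
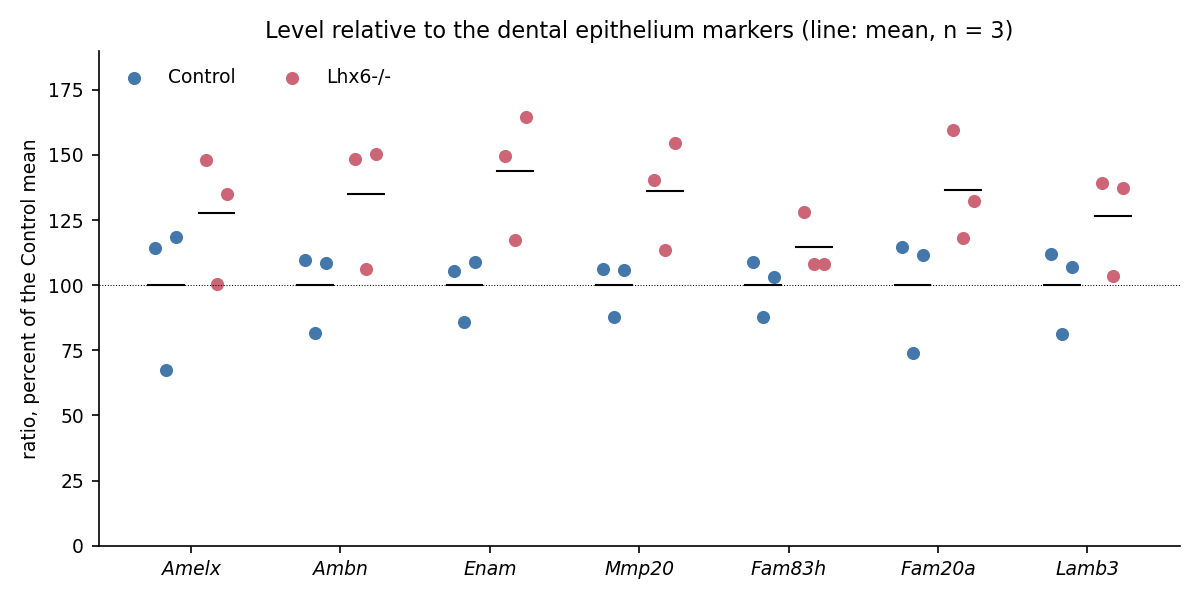
Level of each enamel gene divided by the geometric mean of 15 dental epithelium markers, as percent of the control mean (vertical axis), in 3 control (blue) and 3 Lhx6-/- (red) libraries; black lines are group means. Group means of the Lhx6-/- libraries run from 114.8% for Fam83h to 143.9% for Enam, and only Enam, Mmp20 and Fam20a have groups that do not overlap.

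Other genes of ameloblast differentiation and secretion were described by a list of 16. Of these 5 were higher and 11 lower, and the median log2 fold change was -0.08 (0.008 without control replicate 2). By edgeR's adjusted p 0 passed, and 4 had an unadjusted p under 0.05 in the lower direction (5.07% of all tested genes). Acp4, an acid phosphatase gene needed for enamel, had a log2 fold change of -0.11. Sp6 and Dlx3, transcription factor genes of the ameloblast lineage, had log2 fold changes of 0.008 and 0.015. Lama3, which encodes a chain of the same laminin as Lamb3, had a log2 fold change of -0.07, and Lamb3 one of -0.16. In the list of 9 genes of this laminin and of hemidesmosomes, the anchoring junctions it binds, 0 passed either rule. In that list 1 had an unadjusted p under 0.05 (9.81% of all tested genes). Of its genes 2 were higher and 7 lower, and the median was -0.08 (0.018 without control replicate 2).

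In the list of 10 genes of the Fam20 and Fam83 families, 0 passed the adjusted p. All in the lower direction, 3 had an unadjusted p under 0.05 (5.07% of all tested genes) and 2 met the 1.5-fold rule (1.71%). The list's median was -0.30 on the log2 scale, and -0.15 without control replicate 2 or Lhx6-/- replicate 1. The kinase gene Fam20c, whose product works with that of Fam20a, was at 162.6 and 167.2 CPM in control and Lhx6-/- tissue (log2 fold change 0.04, adjusted p = 0.923). The 2 were Fam83a and Fam83c, at 1.971 and 1.61 CPM in control and 0.99 and 0.8221 CPM in Lhx6-/- tissue, with log2 fold changes of -0.99 and -0.97 and adjusted p of 0.359 and 0.342. Both, like Fam83h, were highest in control replicate 2. Csnk1a1, a casein kinase 1 gene, stood at 0.02 as its log2 fold change.

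Of 16 maturation stage enamel genes, 14 were in the table and 13 were tested, of which 3 were higher and 10 lower (median log2 fold change -0.07, between -0.12 and -0.03 without 1 library, the extremes being without Lhx6-/- replicate 2 and control replicate 2). Among the 13, 3 had an unadjusted p under 0.05, all in the lower direction (5.07% of all tested genes). Amtn, which encodes amelotin, was the 1 gene of these lists on enamel that fell by the adjusted p (0.0795% of all tested genes). It stood at 283.0, 279.9 and 277.3 CPM in control and 210.2, 168.6 and 200.1 CPM in Lhx6-/- libraries (log2 fold change -0.54, SE 0.09, adjusted p = 0.021 from edgeR). The call held in 14 of 17 alternative fits, and was lost with the epithelium markers as a covariate, without control replicate 3 (adjusted p = 0.136 from edgeR) and without Lhx6-/- replicate 2 (adjusted p = 0.102 from edgeR). Amtn lies in the SCPP cluster with Ambn and Enam, whose log2 fold changes were -0.07 and 0.02, and the difference between them was not tested. Odam, another gene of that cluster, had a log2 fold change of -0.09, and Klk4, the protease of the maturation stage, one of -0.17. Csn3 of the same cluster, a casein gene, met the 1.5-fold rule at 354.8 against 180.3 CPM, with an adjusted p of 0.506 from edgeR. In the list of 12 SCPP neighbours and mineral matrix genes, 10 were tested, 6 were higher and 4 lower, and the median was 0.07. Amtn was the 1 called there by the adjusted p (0.0795% of all tested genes in that direction). At an unadjusted p under 0.05 there were 2 higher and 3 lower (4.75% and 5.07% of all tested genes). Odaph, a maturation stage gene at 2.066 CPM in control and 1.162 CPM in Lhx6-/- tissue, also met the 1.5-fold rule (adjusted p = 0.352 from edgeR).

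Markers of other cells that the capture could hold differed in both directions. All 11 markers of dental papilla mesenchyme were higher (median log2 fold change 0.19) but 0 were called by edgeR (6 at an unadjusted p under 0.05 in that direction, which 4.75% of all tested genes reached), and their sum ran from 94267 to 119248 CPM in control and from 109385 to 117576 CPM in Lhx6-/- libraries. All 8 endothelium markers were higher (median 0.24), 6 of them at an unadjusted p under 0.05 (again beside 4.75% of all tested genes). Cldn5, a tight junction gene, rose with an adjusted p of 0.014 from edgeR. All 6 erythroid markers were lower (median -0.73) and 0 passed the adjusted p. Of them 3 met the 1.5-fold rule (1.71% of all tested genes in that direction) and 4 had an unadjusted p under 0.05 (5.07%). Their sum ran from 2969 to 3701 CPM in control and from 1592 to 2329 CPM in Lhx6-/- libraries. Of 10 odontoblast markers 6 were higher and 4 lower. Notum, a Wnt antagonist gene among them, fell with an adjusted p of 0.0145 from edgeR. Dspp, the study's marker of odontoblast differentiation, went the other way, with means of 4466 CPM in control and 5606 CPM in Lhx6-/- tissue. Its groups did not overlap, but edgeR did not call it (unadjusted p = 0.00264, adjusted p = 0.199). By Dspp in tissue sections, the study reports disturbed odontoblast differentiation in the middle apical area of the FDR. It also reports furcation cells of the Lhx6+ lineage without Dspp at a later stage. Neither is a level in the whole captured tissue at PN4.5. Medians were 0.04 for the odontoblast markers and 0.01 for 8 osteoblast markers. They were -0.004 for 7 dental follicle and periodontal ligament markers, -0.12 for 9 immune and osteoclast markers, 0.14 for 6 muscle markers and 0.02 for 7 nerve and glia markers. Leaving out 1 library moved several of these medians. That of nerve and glia ran from -0.153 without control replicate 1 to 0.504 without control replicate 2, and that of muscle from 0.076 without Lhx6-/- replicate 3 to 0.308 without Lhx6-/- replicate 1. The immune and osteoclast median was -0.218 without Lhx6-/- replicate 1. Medians near 0 changed sign, to -0.023 for odontoblast and -0.042 for osteoblast markers without control replicate 2, and to 0.051 for follicle and ligament markers without Lhx6-/- replicate 3. The calls of Cldn5 and Notum were lost without control replicate 3, Lhx6-/- replicate 1 or Lhx6-/- replicate 2, where the adjusted p from edgeR ran from 0.0836 to 0.115. With the epithelium markers as a covariate the call of Cldn5 was lost as well (adjusted p = 0.0955 from edgeR). The part of these cells in the levels of the enamel genes was not tested.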

How the data were processed

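RNA was measured in 3 control and 3 Lhx6-/- libraries of captured molar tissue. The authors trimmed the reads and aligned them to mm10 with STAR 2.6.1d, and the submitters' notes also name Partek. They deposited estimated counts per gene, not normalized, and 53.7% of the values are not whole. The smallest value that any gene has in its highest library is 10, so scarcer genes were already absent. The count table has no gene names. The order of its genes was taken from the authors' comparison table, whose mean columns it matched with a largest relative deviation of 8.56e-08. The ratios, log2 ratios, fold changes, p-values and step-up false discovery rates of that table are the authors' own comparison and were not used. The counter, the annotation and the strand setting are not given in the sources used here.

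Estimated counts were rounded and tested with edgeR 4.0.16 in R 4.3.3 (TMM, default expression filter, robust quasi-likelihood, genotype alone, two-sided), and p-values were adjusted by the Benjamini-Hochberg method over 20114 genes. A second rule, 1.5-fold with an unadjusted p under 0.05, follows the study's methods. The common biological coefficient of variation was estimated at 0.202. The SE of a log2 fold change was obtained from that fold change and the F statistic. Shares of a library use all deposited estimated counts. Exon lengths are from GENCODE vM21, and the authors' last position was reduced by 1 to match it. Lhx6-/- libraries are numbered as in the sample titles, which differ from the numbers in the deposited library names. The code was tested on simulated counts. The members and lists were chosen with earlier results of these data known. Named genes were Lhx6, the 7 genes, up to 4 called and up to 3 most abundant genes of each of 18 lists as space allowed, the nearest patterns, and genes with at least 1% of the counts. Some named results are not reported here. Others were named after their values were seen: Sp6, Dlx3, Fam20c, Csnk1a1, Csn3, Odaph, Klk4, Odam and Arhgap6. Alternatives used limma 3.58.1 and DESeq2 1.42.0, and figures matplotlib 3.10.9 in Python 3.11.15.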

Additional observations from a re-analysis of the deposited data

How the results depend on the processing

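None of the 7 enamel genes had an adjusted p under 0.05 from edgeR, limma or DESeq2 in any of 17 alternative fits, where the adjusted p ran from 0.293 (Fam83h) to 0.999. The fits were upper-quartile and total-count scaling, library sizes without the 7 genes and the ribosomal RNA gene, DESeq2, limma voom and limma-trend, 2 other filters on low counts, dispersion without robust estimation, a replicate block, the level of dental epithelium markers as a covariate, and leaving out each library. Amelx, Fam83h, Fam20a and Lamb3 kept a negative log2 fold change in all 17. With the epithelium covariate the log2 fold change was 0.088 for Ambn and 0.232 for Mmp20, moved from -0.121 to -0.219 for Amelx and from -0.161 to -0.004 for Lamb3. Leaving out 1 library gave a log2 fold change of -0.202 to -0.038 for Amelx, -0.261 to -0.078 for Lamb3, -0.195 to 0.016 for Ambn, -0.128 to 0.14 for Enam, -0.204 to 0.077 for Mmp20 and -1.17 to -0.859 for Lhx6. The difference in percent of the library then ran from -1.13 to -0.357 for Amelx, from -0.33 to 0.0642 for Ambn, from -0.0321 to 0.0537 for Enam and from -0.0038 to 0.00207 for Mmp20. The causes were not tested.

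The count of enamel genes with an unadjusted p under 0.05, which is 1 (Fam83h), was 0 with limma voom and 0 with the epithelium covariate, and from 0 to 1 when 1 library was left out (0 without control replicate 2 or Lhx6-/- replicate 1). Without Lhx6-/- replicate 3 the 1 gene was Lamb3 (unadjusted p = 0.0171 from edgeR) and no longer Fam83h (unadjusted p = 0.0635 from edgeR). Over all tested genes, 81 had an adjusted p under 0.05, against 315 with DESeq2, 18 with the epithelium covariate and 12 to 127 without 1 library. With the replicate number as a block 134 genes passed and 0 of the 7 enamel genes did. Deviations of libraries with the same number in the sample titles correlated at 0.026, -0.029 and -0.031. The deposited library names number the Lhx6-/- libraries differently, and a block by those names was not fitted. No control library correlated best with the Lhx6-/- library of its own number. The study's methods name 3 pairs of samples, but the labels do not say which libraries form a pair. With so few libraries these correlations cannot decide whether the libraries were paired. With 3 pooled libraries in each group, the spread between them set the precision, and the 95% intervals of the 6 genes other than Fam83h lay between 0.77-fold and 1.24-fold.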
